A study of Homo sapiens with 4 samples.

Results

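The genes described here encode the machinery that moves proteins and RNA between the cytoplasm and the nucleus. They comprise the importin alpha adaptors, the import receptors of the importin beta family, the exportins, the Ran cycle that sets the direction of transport, and the nucleoporins that build the nuclear pore. Members were chosen by symbol, by a rule that uses no measured value but was written with earlier results of these data known. The rule took every listed gene named KPNA, KPNB, IPO, XPO, TNPO or NUP with a number, together with XPOT, CSE1L, TPR, RAN, RANBP2, RANGAP1, RCC1, NUTF2, POM121 and NDC1. It found 51 of the 14431 genes listed. Of the family symbols looked for, KPNA7 and NUP210L were not among the genes listed, and NUP58 and NUP42, listed under the older symbols NUPL1 and NUPL2, were counted with the companion pore genes. All 51 members passed the filter of a mean of at least 1 CPM (a read count divided by library size, on a fixed scale) in 1 group. KPNA5 passed it only through the siAARS1 group.

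RNA-seq was performed on HGC27, a human gastric cancer cell line, in 2 control and 2 siAARS1 libraries. The siAARS1 cells, labelled as AARS1 knockdown, received an siRNA, a short RNA that silences a matching transcript, against AARS1. The control libraries were labelled WT, and NC in their descriptions. Titles and descriptions do not spell out NC or say whether control cells received an siRNA. Cells of both groups were kept in DMEM without glucose and given 25 mM lactate. The labels put the lactate at 24 h, the text of the study gives another duration for this experiment, and the time is therefore uncertain. Every library received lactate, so the effect of lactate itself was not measured, and nothing in the labels says whether the 2 libraries of a group came from separate cultures, so p-values measure only the spread between these libraries.

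The libraries held 30653210 to 33522573 reads in the listed genes, and 1 read equalled 0.0293 to 0.0324 CPM. AARS1 (listed as AARS), the alanyl-tRNA synthetase that the siRNA targets, had 428 and 417 CPM in control against 292 and 298 CPM after siAARS1, a log2 fold change of -0.52 (SE 0.0357 and adjusted p = 2.52e-11, limma). Of the 9 epithelial and gastric markers examined, EPCAM, KRT18, KRT19, TFF1, CLDN18 and ATP4B were not among the genes listed. KRT8 was at 24.8 and 25.2 CPM in control against 6.61 and 5.08 CPM after siAARS1. CDH1 was at 2.55 and 1.89 CPM in control against 0.680 and 1.05 CPM after siAARS1. MUC1 was at 10.4 and 10.5 CPM against 9.46 and 9.96 CPM. The mesenchymal marker VIM was at 5131 and 5068 CPM in control against 4710 and 4600 CPM after siAARS1. ZEB1 was at 6.16 and 6.84 CPM in control against 50.0 and 52.3 CPM after siAARS1. FN1 was at 72.6 and 75.4 CPM in control against 54.2 and 51.7 CPM after siAARS1, and CDH2 was not among the genes listed. Of the markers of other cells, COL1A1 was at 2320 and 2399 CPM in control against 1644 and 1541 CPM after siAARS1. PTPRC, CD3E, PECAM1 and LYZ were not among the genes listed. VIM, FN1 and COL1A1 were thus lower after siAARS1 while ZEB1 was higher. The part of these shifts in the results below was not tested, and in bulk RNA fewer cells of a type and less RNA per cell cannot be told apart.

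Cargo enters the nucleus bound to a receptor that passes through the nuclear pore. For classical import, an importin alpha reads the nuclear localization signal of the cargo and importin beta 1 (KPNB1) carries the complex through. Inside, the GTP-bound form of the small GTPase Ran releases the cargo, and the same form of Ran is needed by exportins to pick up cargo on the way out. The pore itself is a ring of nucleoporins, with a Y-shaped scaffold complex on both faces, an inner ring, a central channel lined with flexible phenylalanine-glycine repeats, cytoplasmic filaments and a nuclear basket. KPNA4 (importin alpha 3) and XPO1 (exportin 1, or CRM1, the main exportin of proteins with a nuclear export signal) are the importin and the exportin that the study followed. The comparison asked how transcripts of this machinery differed between siAARS1 and control cells under lactate.

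Transcripts of the members differed in base composition, and their changes differed with it, so a stretch of the coding sequence is shown for 4 of them. They are KPNA4, XPO1 and the members with the highest (RANBP2) and lowest (NUP210) log2 fold change. Each line is the central 120 bases of the longest coding exon of the GENCODE v29 transcript, 5′ to 3′ on the coding strand, with G and C in capitals. The KPNA4 stretch lies in exon 9 of 17 (GRCh38, chr3:160525963-160526082, minus strand) and is 37.5% G or C. The XPO1 stretch lies in exon 12 of 25 (chr2:61493933-61494052, minus strand) and is also 37.5%. The RANBP2 stretch lies in exon 20 of 29 (chr2:108765753-108765872, plus strand) and is 41.7%. The NUP210 stretch lies in exon 36 of 40 (chr3:13321651-13321770, minus strand) and is 60.8%. Over whole transcripts the GC content was 39.1% for KPNA4, 39.6% for XPO1, 39.2% for RANBP2 and 58.4% for NUP210.
KPNA4: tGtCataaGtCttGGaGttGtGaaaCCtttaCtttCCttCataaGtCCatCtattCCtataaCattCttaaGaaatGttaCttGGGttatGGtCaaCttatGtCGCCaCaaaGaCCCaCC
XPO1: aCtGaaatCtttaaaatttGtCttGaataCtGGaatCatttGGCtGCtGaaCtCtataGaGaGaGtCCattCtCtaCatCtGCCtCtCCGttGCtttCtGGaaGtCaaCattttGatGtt
RANBP2: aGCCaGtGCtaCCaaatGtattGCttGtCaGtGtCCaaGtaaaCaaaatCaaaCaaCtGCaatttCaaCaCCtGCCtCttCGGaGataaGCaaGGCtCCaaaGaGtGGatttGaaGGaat
NUP210: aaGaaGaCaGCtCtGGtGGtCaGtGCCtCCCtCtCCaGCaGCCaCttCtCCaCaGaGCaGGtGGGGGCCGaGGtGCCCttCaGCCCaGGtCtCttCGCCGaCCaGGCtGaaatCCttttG

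Most members were higher in siAARS1 libraries. Of the 51 members, 40 rose, 4 fell and 7 did not pass the test (limma adjusted p over all 14199 genes tested, threshold 0.05). Among all genes tested 70.7% passed, 32.6% higher and 38.0% lower, while 86.3% of the members passed, 78.4% higher and 7.84% lower. The median log2 fold change of the members was 0.57, against -0.05 over all genes tested, whose interquartile range ran from -0.31 to 0.37. A rise of at least 2-fold was called for 18 members (35.3%), against 10.6% of all genes, and a fall of that size for 0 members, against 1.63% of all genes. The values of the groups did not overlap for 48 members, against 85.1% of all genes, with XPO6, NUP37 and NUP62 as the exceptions. The 40, the 18 and the 48 each include KPNA5, which entered the test only through the siAARS1 group and supports nothing. The members summed to 6547 and 6638 CPM in control against 9760 and 9866 CPM after siAARS1, or 0.666% and 0.676% of the listed CPM against 0.983% and 0.994%. Replicates lay close together, with a median SD of 1.84% of the mean in control and 2.53% in siAARS1 libraries.

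**Figure D1:**
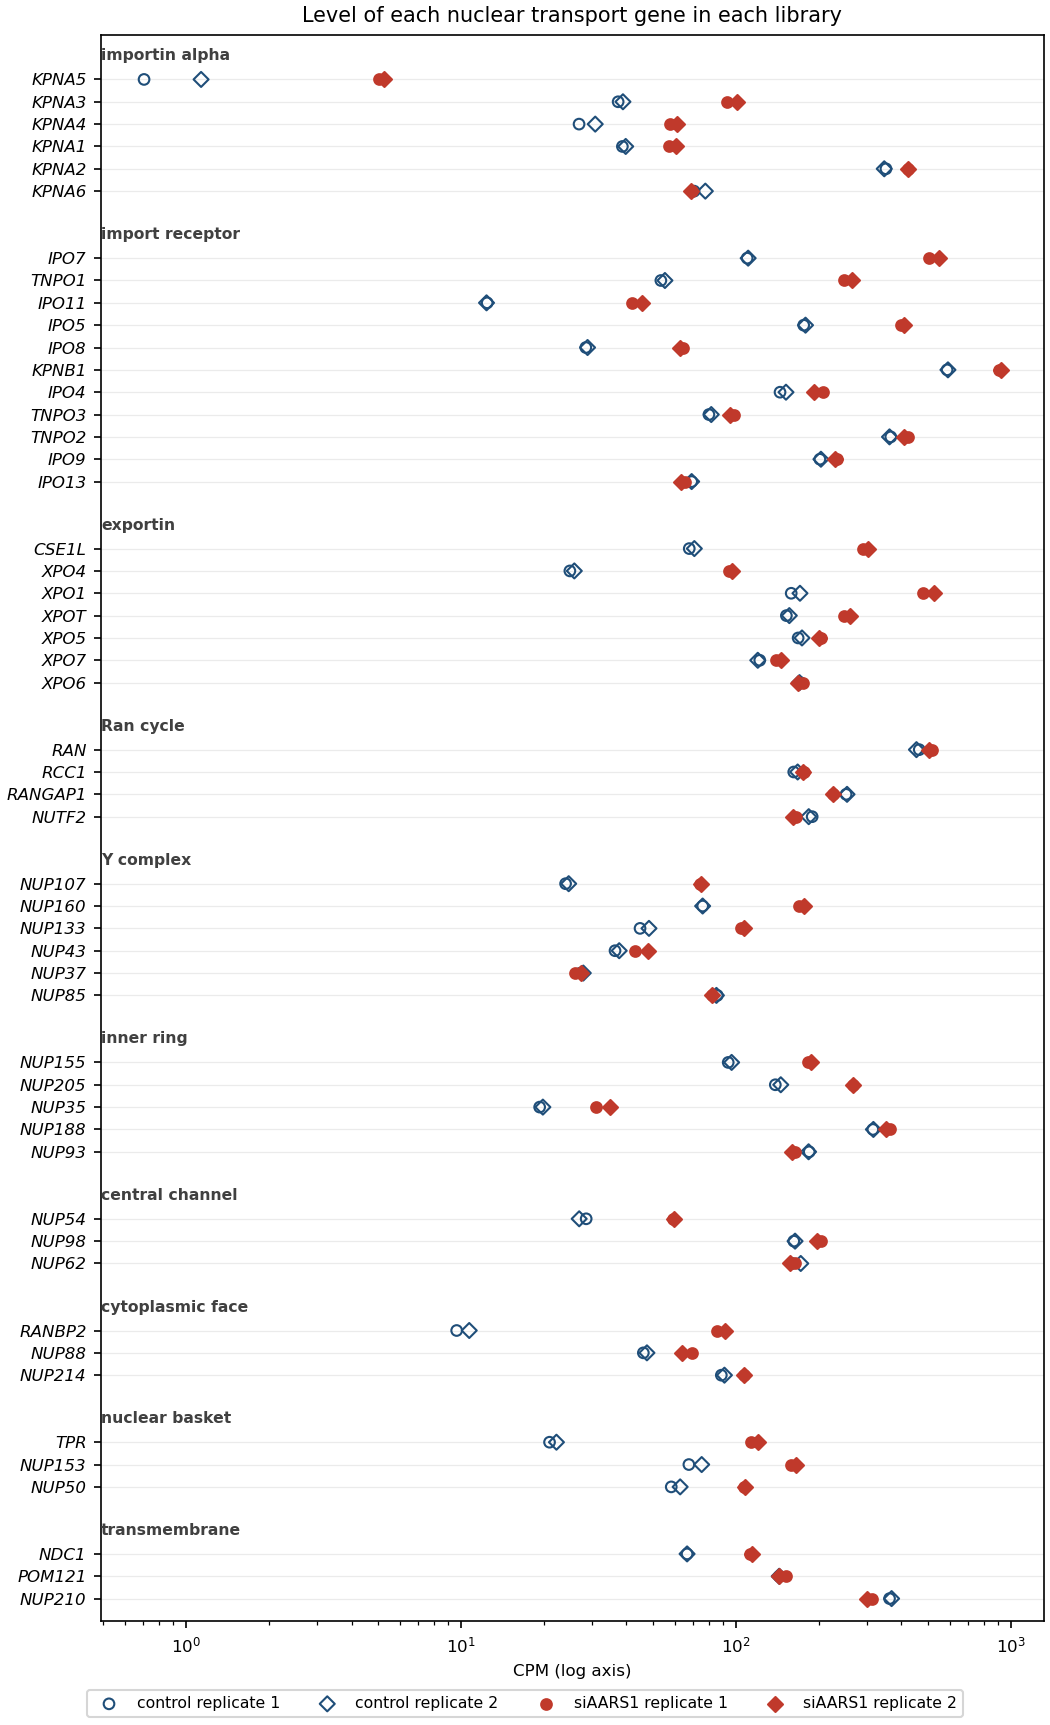
CPM of the 51 members in each of the 4 libraries, by role, on a log axis. Open symbols are control and filled symbols siAARS1 libraries, with circles for replicate 1 and diamonds for replicate 2. RANBP2, TPR, IPO7 and CSE1L lie far to the right in siAARS1, and NUP210, NUP93, RANGAP1 and NUTF2 lie to the left.

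A pair of corrections was run beside each comparison, because changes followed base composition across the whole data set. The transcript correction removed from each library the smooth trend of its values with the base composition and size of the transcript. The coding/UTR correction did so with the base composition and size of the coding sequence and of the 3′ UTR. Each also removes any true change that follows these properties, and the part of base composition in the results was not tested. After the transcript correction 39 members were higher and 10 lower, against 32.7% and 33.3% of the genes tested, with a median of 0.33. After the coding/UTR correction 25 were higher and 14 lower, against 34.0% and 31.4%, and the median was 0.07. Scaling each library to its median gene moved the median of all genes to -0.27. It gave 28 higher and 12 lower members, against 23.3% and 57.6% of all genes, with a member median of 0.35. The 39 and the 28 include KPNA5. In all, 18 members (35.3%) were higher without correction and after both corrections, against 14.0% of the genes in all of these fits.

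Among the 6 importin alpha genes, which encode the adaptors that read nuclear localization signals, 5 were called higher, 0 lower and 1 did not pass. Those 5 include KPNA5, whose entry into the test required a difference. Counts in this and each later role stand against 32.6% higher and 38.0% lower among all genes tested. Among genes with a transcript GC content under 45%, 71.2% were called higher. KPNA4 (ENSG00000186432; chromosome 3, 160494995 to 160565588) had 26.9 and 30.8 CPM in control against 57.5 and 60.9 CPM after siAARS1. Both siAARS1 values lay above both controls. Mean levels of 28.8 ± 2.76 (SD, n = 2) and 59.2 ± 2.37 CPM gave a fold of 2.05 and a log2 fold change of 1.01 (SE 0.0646 and adjusted p = 6.56e-12, limma). The direction did not hold after the corrections, at -0.33 after the transcript correction (adjusted p = 2.97e-05, limma) and -0.24 after the coding/UTR correction (adjusted p = 0.000430, limma). KPNA4 thus rose in CPM by more than the spread between replicates, but by less than the trend of genes like it in base composition and length.

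KPNA3 (importin alpha 4), the closest relative of KPNA4, had 37.3 and 38.8 CPM in control against 92.9 and 100.5 CPM after siAARS1. Its log2 fold change of 1.32 (adjusted p = 2.03e-15, limma) was 0.45 and 0.26 after the corrections and stayed past the threshold after both. KPNA5 had 0.704 and 1.14 CPM in control, from 24 and 36 reads, and 5.02 and 5.26 CPM in siAARS1 libraries. It was the least abundant member. Because it entered the test only through the group where it was high, its log2 fold change of 1.69 is given without a p-value and supports nothing. After the corrections it was at 0.49 and 0.31, the latter without passing. KPNA1 (importin alpha 5) had 38.7 and 39.7 CPM in control against 57.1 and 60.4 CPM after siAARS1. Its log2 fold change of 0.57 (adjusted p = 6.83e-09, limma) turned to -0.64 and -0.13 after the corrections, past the threshold in both. An antisense gene shares 16.3% of the exon bases of KPNA1, and whether the counting kept the 2 strands apart is not known.

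KPNA2 (importin alpha 1), whose protein is abundant in dividing cells, had the most reads of the importin alpha genes. It had 351 and 346 CPM in control against 423 and 423 CPM after siAARS1. The log2 fold change was 0.28 (SE 0.0348 and adjusted p = 3.98e-07, limma), and it was 0.21 after the transcript correction (adjusted p = 2.93e-06, limma). It did not pass after median scaling (0.06, adjusted p = 0.196, limma) or after the coding/UTR correction (0.0001, adjusted p = 0.998, limma). KPNA6 (importin alpha 7) had 70.5 and 77.4 CPM in control against 69.3 and 68.7 CPM after siAARS1. It was the importin alpha that did not pass, with a log2 fold change of -0.10 (adjusted p = 0.0993, limma), although its siAARS1 values lay below both controls. It was lower and past the threshold after median scaling (-0.32) and after the transcript correction (-0.23), but did not pass after the coding/UTR correction (-0.09, adjusted p = 0.0665, limma).

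Levels of the importin alpha genes were compared as CPM per kb of transcript. KPNA2 was the highest at 142 in control and 172 in siAARS1 libraries, and KPNA5 the lowest at 0.0813 and 0.455. In control libraries the order between them was KPNA6 at 10.0, KPNA3 at 8.51, KPNA1 at 5.74 and KPNA4 at 3.21. In siAARS1 libraries it was KPNA3 at 21.6, KPNA6 at 9.36, KPNA1 at 8.60 and KPNA4 at 6.59, so that KPNA3 and KPNA6 changed places. Of the importin alpha total per length, KPNA2 held 84.3% and 83.2% in control and 79.2% and 78.2% in siAARS1 libraries. KPNA3 held 4.92% and 5.12% against 9.54% and 10.2%. KPNA4 held 1.77% and 2.02% in control and 2.94% and 3.08% in siAARS1 libraries. Per coding length its share was 5.20% and 5.86% against 8.28% and 8.59%, and KPNA4 then stood above KPNA1 in siAARS1 libraries. The shares of KPNA1, KPNA5 and KPNA6 also moved by over 1.5 times with the coding length. The share of KPNA6 was 5.63% and 6.19% in control and 4.32% and 4.24% in siAARS1 libraries, that of KPNA1 was 3.34% and 3.43% against 3.84% and 4.02%, and that of KPNA5 was at most 0.212%. For all 6 genes the shares of the groups did not overlap, but KPNA5 entered the test only through the siAARS1 group and supports nothing. Shares of 1 total depend on one another, so these are not 6 separate results. CPM values of single genes, a different measure, did not overlap for 85.1% of all genes tested. The shares rest on uncorrected CPM and were not computed after the corrections. After the transcript correction the log2 fold changes were 0.21 for KPNA2, 0.45 for KPNA3 and 0.49 for KPNA5. They were -0.33 for KPNA4, -0.64 for KPNA1 and -0.23 for KPNA6, so gains in share of KPNA4 and KPNA1 may not hold. An exact two-sided permutation test of 2 libraries against 2 cannot go below p = 0.33, so the shares are given as values without a test.

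**Figure D2:**
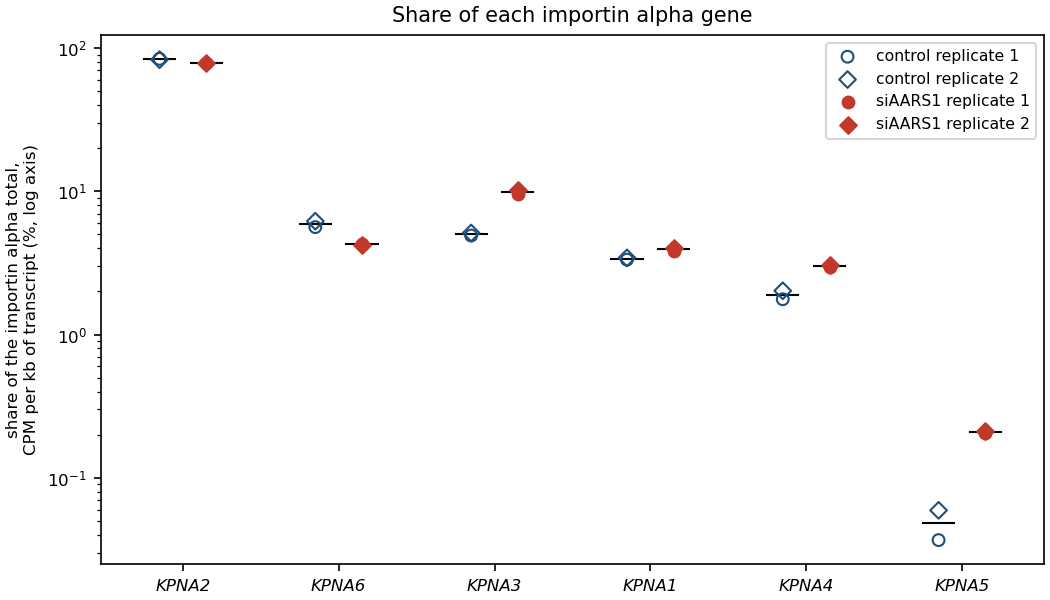
Share of each importin alpha gene in the summed importin alpha CPM per kb of transcript, in percent on a log axis, in each library. The CPM values are without correction for base composition. Bars mark the mean of 2 libraries, and KPNA2 holds on average 83.8% in control and 78.7% in siAARS1 libraries while the share of KPNA3 goes from 5.02% to 9.88%.

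The 11 import receptors bind cargo or an importin alpha and carry it through the pore. Of them 10 rose, 0 fell and 1 did not pass, against 32.6% higher and 38.0% lower among all genes tested. Their median log2 fold change was 0.63. IPO7 (importin 7; ENSG00000205339; chromosome 11, 9384622 to 9448126), which carries ribosomal proteins and histone H1 among other cargo, changed most. It had 109.9 and 110.8 CPM in control against 503 and 548 CPM after siAARS1, a log2 fold change of 2.24 (SE 0.0412 and adjusted p = 1.20e-20, limma). The siAARS1 values were far above both controls, and the change was 0.77 and 0.17 after the corrections, past the threshold in both. IPO13, which carries cargo in both directions, was the receptor that did not pass, at 69.1 and 69.0 CPM in control against 65.3 and 63.0 CPM after siAARS1 (log2 fold change -0.11, limma, adjusted p = 0.0573). After the corrections it was higher, at 0.21 and 0.18, and after median scaling it was lower, at -0.33.

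A pair of other receptors was chosen after their values were seen. KPNB1, the importin beta that carries the importin alpha complexes, had 586 and 590 CPM in control against 906 and 920 CPM after siAARS1. A log2 fold change of 0.63 (adjusted p = 2.89e-13, limma) was 0.33 and 0.23 after the corrections, and it had the highest level per length of the 11 receptors in control, at 95.8 CPM per kb. TNPO1 (transportin 1), the receptor of several RNA-binding proteins, had 53.4 and 55.2 CPM in control against 248 and 265 CPM after siAARS1. The log2 fold change of 2.22 stayed at 1.78 and 1.07 after the corrections, the highest value among the 51 members in both. Summed over the 11 receptors the CPM was 1828 and 1845 in control and 3188 and 3237 in siAARS1 libraries, a fold of 1.75.

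Of the 7 exportins 6 rose, 0 fell and 1 did not pass, with a median log2 fold change of 0.71. Their median transcript GC content was 40.85%, and 71.2% of all genes under 45% were called higher. After the transcript correction 6 were higher and 1 lower, against 32.7% and 33.3% of the genes tested, with a median of 0.27. After the coding/UTR correction 1 was higher and 3 were lower, against 34.0% and 31.4%, with a median of -0.08. XPO1 (ENSG00000082898; chromosome 2, 61477849 to 61538626) had 159 and 171 CPM in control against 479 and 526 CPM after siAARS1. The groups did not overlap and mean levels of 165 ± 8.55 (SD, n = 2) and 502 ± 32.9 CPM gave a fold of 3.05. The log2 fold change of 1.60 (SE 0.0444 and adjusted p = 4.07e-18, limma) was 0.57 after the transcript correction (adjusted p = 2.98e-11, limma) and -0.55 after the coding/UTR correction (adjusted p = 4.42e-13, limma). The corrections therefore gave opposite directions for XPO1, both past the threshold. Per length, XPO1 was at 33.6 CPM per kb in control and 102 CPM per kb in siAARS1 libraries, the highest of the exportins in the latter.

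CSE1L, the exportin that returns importin alpha to the cytoplasm, had the highest log2 fold change of the exportins. It had 67.7 and 70.6 CPM in control against 291 and 301 CPM after siAARS1, a log2 fold change of 2.08 (SE 0.0416 and adjusted p = 2.83e-20, limma). It was the exportin that stayed higher after both corrections, at 1.19 and 0.36. XPO6, which exports actin bound to profilin, did not pass, at 171.5 and 170.3 CPM in control against 175 and 169 CPM after siAARS1 (log2 fold change 0.01, limma, adjusted p = 0.834). Its groups overlapped, and it was at -0.21 after median scaling and 0.25 after the transcript correction, past the threshold in both. The remaining 4 exportins had log2 fold changes of 0.24 to 1.87, and of -1.06 to -0.08 after the coding/UTR correction. XPOT, the exportin of transfer RNA, chosen here after its values were seen, had 153 and 156 CPM in control against 247 and 259 CPM after siAARS1. A log2 fold change of 0.71 turned to -0.33 and -1.06 after the corrections, the latter being the lowest value of the members in that correction.

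Without correction the 4 genes of the Ran cycle changed little, with 2 higher and 2 lower. RAN, the GTPase itself, had 464 and 454 CPM in control against 518 and 506 CPM after siAARS1, a log2 fold change of 0.16 (SE 0.0349 and adjusted p = 0.000442, limma). Per length RAN was the highest member, at 172.5 CPM per kb in control and 192 CPM per kb in siAARS1 libraries. RCC1, the exchange factor that loads Ran with GTP in the nucleus, rose by a log2 fold change of 0.09 (adjusted p = 0.0450, limma). SNHG3, on the same strand, shares 6.22% of the exon bases of RCC1. RANGAP1, which makes Ran hydrolyse its GTP in the cytoplasm, had 252 and 254 CPM in control against 226 and 226 CPM after siAARS1, and its log2 fold change was -0.16 (adjusted p = 0.000563, limma). NUTF2, the carrier that brings Ran back into the nucleus, had 189 and 184 CPM in control against 166 and 161 CPM after siAARS1, with a log2 fold change of -0.19 (adjusted p = 0.000224, limma). All 4 sets of values were separate between groups, against 85.1% of all genes tested, but none of the directions was shared by every setting. Median scaling put RAN at -0.06, RCC1 at -0.13, RANGAP1 at -0.38 and NUTF2 at -0.41. The transcript correction put RAN at -0.21, RCC1 at 0.27, RANGAP1 at 0.14 and NUTF2 at 0.04. After the coding/UTR correction all 4 were higher, at 0.08 to 0.39. The summed CPM of the 4 genes was 1068 and 1059 in control and 1086 and 1068 in siAARS1 libraries.

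The Y complex is the scaffold that coats the pore on both faces. Of the 6 Y complex genes taken by the symbol rule, 4 rose, 0 fell and 2 did not pass. Genes of the complex outside the rule, such as SEC13, were counted with the companion genes. NUP107 had 24.0 and 24.7 CPM in control against 74.2 and 74.8 CPM after siAARS1, a log2 fold change of 1.57 (SE 0.0557 and adjusted p = 2.26e-16, limma). It was 0.50 and 0.13 after the corrections, past the threshold in both. NUP85, which sits in a short arm of the same complex, had 85.6 and 84.9 CPM in control against 82.1 and 81.8 CPM after siAARS1, and did not pass (log2 fold change -0.06, limma, adjusted p = 0.268). NUP37 had 27.3 and 27.9 CPM in control against 26.1 and 27.3 CPM after siAARS1 and did not pass either (-0.05, limma, adjusted p = 0.549). NUP85 was past the threshold as higher after the transcript correction (0.15) and as lower under median scaling (-0.28). NUP37 was past it as lower after both corrections, at -0.71 and -0.50, and under median scaling, at -0.27. These 6 genes for proteins of 1 complex thus had unequal changes, from -0.06 to 1.57. NUP37 was the member that stood lowest after the transcript correction (-0.71), with a transcript GC content of 38.6%.

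Of the 5 inner ring members, which hold the pore to the membrane and the channel in place, 4 rose and 1 fell. NUP155 had 93.8 and 96.5 CPM in control against 183 and 188 CPM after siAARS1, a log2 fold change of 0.95 (SE 0.0412 and adjusted p = 7.50e-15, limma). It turned to -0.08 and -0.69 after the corrections, past the threshold in both. NUP93, a linker of the inner ring, fell from 185 and 184 CPM to 164 and 161 CPM, a log2 fold change of -0.18 (adjusted p = 0.000271, limma). After the transcript correction NUP93 was at 0.01 and did not pass (adjusted p = 0.764, limma), while it was lower after the coding/UTR correction (-0.14, adjusted p = 0.000407, limma) and under median scaling (-0.40). In the central channel, NUP54 had 28.5 and 26.9 CPM in control against 58.9 and 59.4 CPM after siAARS1. The log2 fold change of NUP54 was 1.07 (adjusted p = 4.06e-13, limma), and 0.48 and 0.36 after the corrections. NUP62, which forms a complex with NUP54, had 160 and 172 CPM in control against 164 and 157 CPM after siAARS1, with overlapping groups and a log2 fold change of -0.05 (adjusted p = 0.33, limma). It was past the threshold as higher after the corrections, at 0.27 and 0.28, and as lower under median scaling, at -0.27. Exons of NUP62 overlap those of other genes, up to 10.4% of its bases with ATF5 on the other strand.

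All 3 members of the cytoplasmic face rose, and were higher after both corrections as well, against 14.0% of the genes in all of these fits. RANBP2 (NUP358; ENSG00000153201; chromosome 2, 108719481 to 108785811), the large protein of the cytoplasmic filaments that binds Ran and acts as a SUMO ligase, had the highest log2 fold change of the 51 members. It had 9.65 and 10.7 CPM in control, from 329 and 340 reads, and 85.4 and 91.5 CPM in siAARS1 libraries. Mean levels of 10.2 ± 0.755 (SD, n = 2) and 88.5 ± 4.35 CPM gave a fold of 8.69 and a log2 fold change of 3.0 (SE 0.0683 and adjusted p = 1.74e-19, limma). The corrections left 1.64 and 0.29. RANBP2 has near-identical copies in the genome, the RGPD genes, between which the counting could split reads. RGPD2 had 3.52 and 5.20 CPM in control against 14.2 and 16.6 CPM after siAARS1, and RGPD1 had 2.49 and 0.788 CPM against 7.97 and 7.46 CPM. NUP214, on the same face, rose least of the 3, from 88.5 and 90.8 CPM to 106.7 and 107.4 CPM (log2 fold change 0.25, limma, adjusted p = 2.62e-05), but was at 0.03 after median scaling.

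All 3 nuclear basket members rose, with the highest fold of the summed CPM of any role, 2.52. Their transcript GC content was 40.1% to 43.1%, and 71.2% of all genes under 45% were called higher. TPR (ENSG00000047410; chromosome 1, 186311652 to 186375693), the coiled-coil protein that forms the basket filaments, had 21.0 and 22.3 CPM in control against 113.6 and 120.7 CPM after siAARS1. The log2 fold change was 2.38 (SE 0.0553 and adjusted p = 2.40e-19, limma), with no overlap of the groups. It stayed at 1.1 after the transcript correction and turned to -0.18 after the coding/UTR correction (adjusted p = 0.00128, limma). NUP50, a mobile basket protein that helps to release importin alpha from cargo, had 58.2 and 62.7 CPM in control against 107.2 and 108.2 CPM after siAARS1. Its log2 fold change of 0.82 (adjusted p = 1.53e-12, limma) was 0.27 and 0.43 after the corrections, past the threshold in both.

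The 3 transmembrane nucleoporins, which anchor the pore in the nuclear envelope, went separate ways. NDC1 had 66.5 and 66.4 CPM in control against 112 and 115 CPM after siAARS1, a log2 fold change of 0.76 (adjusted p = 1.59e-12, limma) that turned to -0.14 and -0.32 after the corrections. NUP210 (gp210; ENSG00000132182; chromosome 3, 13316235 to 13420309) had the lowest log2 fold change of the 51 members. It had 362 and 368 CPM in control against 312 and 299 CPM after siAARS1, a log2 fold change of -0.26 (SE 0.0367 and adjusted p = 2.21e-06, limma), and after the corrections it was at 0.08 and 0.06. POM121 had 143.8 and 143.7 CPM in control against 151.5 and 144.0 CPM after siAARS1 and did not pass (0.04, limma, adjusted p = 0.410). It was past the threshold as higher after the corrections, at 0.33 and 0.37, and as lower under median scaling, at -0.18. POM121 has close copies, of which POM121C had 145 and 149 CPM in control against 147 and 139 CPM after siAARS1, and a pseudogene on the other strand shares 18.8% of its exon bases, so its value is uncertain. Summed over all 23 nucleoporins the CPM was 2260 and 2312 in control and 3150 and 3145 in siAARS1 libraries.

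**Figure D3:**
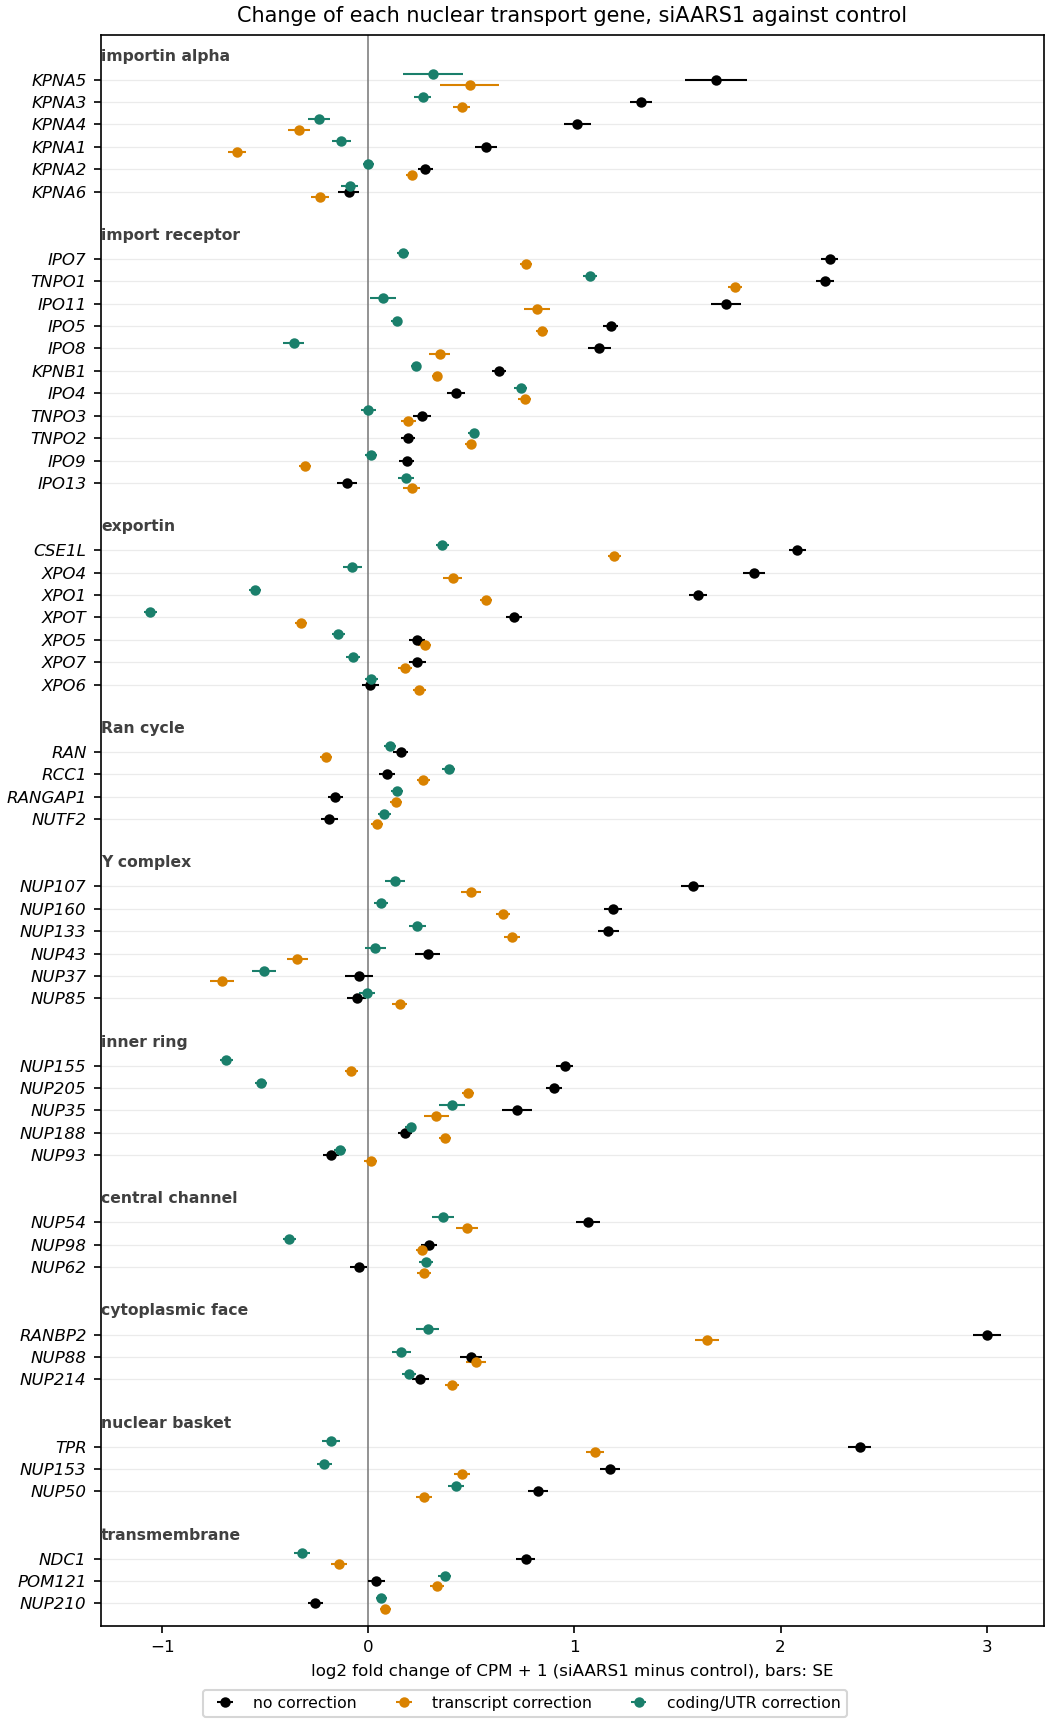
Log2 fold change of CPM + 1, siAARS1 minus control, of the 51 members by role, with SE bars from limma, without correction (black), after the transcript correction (orange) and after the coding/UTR correction (green). The black points lie to the right of 0 for most members, and the green points lie on both sides, with TNPO1 highest at 1.07 and XPOT lowest at -1.06.

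The direction of the members moved with base composition. They were divided at a transcript GC content of 45%, a value set with the data known. Of the 28 members below it, 27 rose and 0 fell, with a median log2 fold change of 1.17. The 27, the median of 1.17 and the correlations over the members given below include KPNA5, which entered the test only through the siAARS1 group. Of the 23 others 13 rose and 4 fell, with a median of 0.18. Over all genes tested with a transcript, 71.2% of the 4695 genes under 45% were called higher, with a median of 0.56, and 12.9% of the 9124 others, with a median of -0.20. On each side of this value the members' median stood above that of all genes, with single members below it, among them NUP37 under 45% and NUP210 over it. Ranks of the log2 fold change and of transcript GC content correlated at -0.78 over the 51 members and -0.65 over the 13819 genes. With the GC content of the coding sequence the value was -0.84 over the members and -0.67 over 12301 genes. These values describe genes of the same 4 libraries, which are not independent replicates. IPO4, with the highest transcript GC content of the members (59.4%), rose by a log2 fold change of 0.43, but a gene on the same strand shares 69.3% of its exon bases, so reads of the 2 cannot be told apart.

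**Figure D4:**
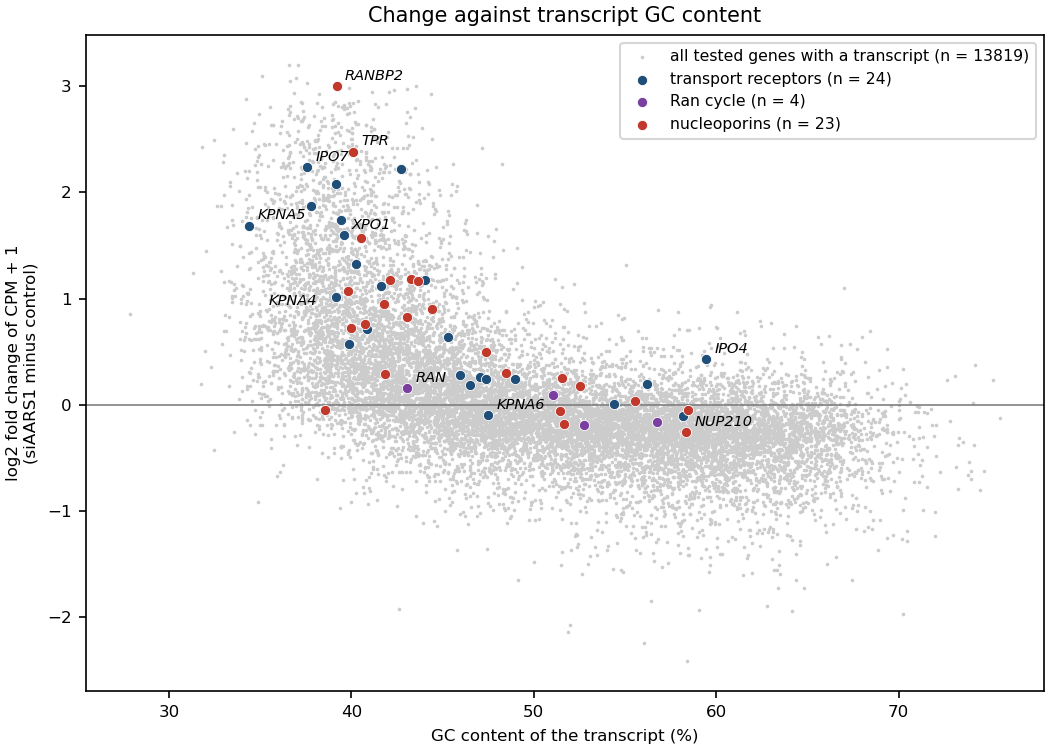
Log2 fold change of CPM + 1, siAARS1 minus control, against the GC content of the transcript in percent. Grey points are the 13819 genes tested with a transcript, and coloured points are the 51 members by role. The highest members have GC-poor transcripts, up to RANBP2 at 3.0, though NUP37 at 38.6% lies at -0.05. The GC-rich members run from NUP210 at -0.26 to IPO4 at 0.43.

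Companion genes outside the symbol rule were counted in 3 lists. Each count stands against 32.6% higher and 38.0% lower among all genes tested. Under median scaling these shares were 23.3% and 57.6%, with a median of -0.27 over all genes. Among the 23 other pore and Ran genes, 11 rose, 5 fell and 7 did not pass, with a median log2 fold change of 0.11. Under median scaling 8 were higher and 12 lower, with a median of -0.11. AHCTF1 (ELYS), which places new pores on chromatin, was highest, at 22.4 and 25.1 CPM in control against 171 and 174 CPM after siAARS1 (log2 fold change 2.81, limma, adjusted p = 1.71e-20). SEC13, a protein of both the Y complex and the COPII coat, was lowest, at 156 and 156 CPM in control against 131 and 118 CPM after siAARS1 (log2 fold change -0.33, limma, adjusted p = 2.15e-06). After the corrections AHCTF1 was at 1.47 and 0.26, and SEC13 at -0.01 and -0.02 without passing.

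Of the 23 listed genes of mRNA and ribosome export, 14 rose, 3 fell and 6 did not pass, with a median of 0.13. Under median scaling 8 were higher and 11 lower, against 23.3% and 57.6% of all genes. The median was then -0.09, against -0.27 over all genes. After each correction 17 were higher, against 32.7% and 34.0% of the genes tested. DDX19B of that list was not among the genes listed. THOC2, the scaffold of the THO complex that couples transcription to mRNA export, was highest, at 12.1 and 15.03 CPM in control against 87.7 and 94.96 CPM after siAARS1 (log2 fold change 2.67, limma, adjusted p = 7.67e-18). THOC3, another subunit of the THO complex, was lowest, at 234 and 232 CPM in control against 205 and 199 CPM after siAARS1 (log2 fold change -0.21, limma, adjusted p = 5.53e-05). Subunits of the same complex stood at both ends of the list, with transcript GC contents of 38.3% for THOC2 and 51.5% for THOC3. After the corrections THOC2 was at 1.39 and 0.49, and THOC3 was at 0.02 and 0.05 without passing. Of the 20 genes of the nuclear envelope and lamina, 10 rose, 7 fell and 3 did not pass, with a median of 0.07. It was 9 higher and 10 lower under median scaling, with a median of -0.15, and the median was -0.02 after the transcript correction. SYNE2 (nesprin 2), which links the nucleus to the cytoskeleton, was highest, at 10.7 and 10.5 CPM in control against 45.2 and 47.6 CPM after siAARS1 (log2 fold change 2.03). SUN2, its partner in the inner nuclear membrane, was lowest, at 135 and 136 CPM in control against 91.0 and 87.3 CPM after siAARS1 (log2 fold change -0.60, limma, adjusted p = 4.75e-11), and stayed lower after both corrections at -0.25. SYNE2 was at 0.70 and -0.09 after the corrections.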

How the data were processed

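RNA-seq was measured in 4 libraries, 2 per group, grouped by sample title. The authors deposited 1 table of CPM values for 14431 genes. Per the labels, the submitters' processing notes name RSEM 1.3.3 and hg38. The aligner, the use of strand and the annotation were not given in the sources used here. CPM corrects for library size and not for gene length or GC content. Divided by what 1 read was worth, 100% of the CPM values of each library came out as whole reads, within 0.1 read, and these reads were used as counts.

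Groups were compared by limma 3.58.1 (R 4.3.3, empirical Bayes with a trend) on log2(CPM + 1). The filter on low values, a group mean of 1 CPM or more in either group, left 14199 genes. P-values were Benjamini-Hochberg adjusted over these genes, with a threshold of 0.05. Fold changes on this scale understate the change of low genes. The recovered reads were tested with edgeR 4.0.16 and DESeq2 1.42.0. The transcript and coding/UTR corrections subtracted a smooth fit (mgcv 1.9.3) on GC content and length, from GENCODE v29 transcripts (GRCh38) matched by gene identifier, with 13819 and 12179 genes tested. Coordinates are from GENCODE and may not be those of the authors' annotation. The limma fit without correction was tested on simulated counts in which a small part of the genes changed, without a trend with base composition. These data differ from that setting, and the corrections were not simulated. Replicates differed beyond sampling noise (chi-square per gene 3.63 and 3.62) and all were used.

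Members, roles and companion lists were chosen with earlier results of these data known. The genes named are AARS1, KPNA4, XPO1, every KPNA gene, the highest and lowest member of each other role and companion list, and every member that did not pass. KPNB1, TNPO1, XPOT, RCC1, RANGAP1 and IPO4 were added after their values were seen.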

Additional observations from a re-analysis of the deposited data

How the results depend on the processing

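The count of members called (44) stayed between 39 and 49 under the 18 alternatives, and at 43 or 44 when any 1 library was left out. No member changed side or sign under a pseudocount of 0.1, no filter, at least 10 reads in every library, TMM scaling or edgeR with TMM. The number of lower members (4) moved to 12 under median scaling, 7 under quantile normalization, 10 with the transcript correction, 10 with that correction and the replicate block, and 14 with the coding/UTR correction, where the number of higher members (40) moved to 25. The lower genes among all genes moved from 5399 to 8173 under median scaling, and those in the companion lists from 15 to 33 under median scaling and to 8 in DESeq2. With the replicate block 45 members, 10389 of all genes and 50 companion genes were called. The labels do not say that the numbers pair the libraries, and the deviations of same-numbered libraries correlated at 0.118. Leaving out 14 members that share at least 5% of their exon bases with another gene or have close copies, an alternative chosen after seeing the data, left 29 higher and 4 lower. Depth limits the precision of KPNA5 most, at 24 and 36 control reads, and every other member had at least 329 reads in each library. The 44, the 40 and the 29 include KPNA5, which entered the test only through the siAARS1 group and supports nothing.

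Log2 fold changes of named genes changed sign as follows, and the cause was not tested. With the transcript correction, and alike with the replicate block added, they were THOC3 0.017, RAN -0.21, RANGAP1 0.14, NUTF2 0.042, NUP85 0.15, NUP62 0.27, XPOT -0.33, IPO13 0.21, KPNA4 -0.33, KPNA1 -0.64, NUP155 -0.083, NUP93 0.011, NDC1 -0.14 and NUP210 0.082. With the coding/UTR correction they were THOC3 0.053, SYNE2 -0.085, RANGAP1 0.14, NUTF2 0.077, NUP62 0.28, XPO1 -0.55, XPOT -1.06, IPO13 0.18, KPNA4 -0.24, KPNA1 -0.13, NUP155 -0.69, TPR -0.18, NDC1 -0.32 and NUP210 0.063. Under median scaling they were RAN -0.063, RCC1 -0.13, XPO6 -0.21 and POM121 -0.18. In edgeR with RLE they were NUP37 0.0055 and NUP62 0.0041, and in DESeq2 NUP37 0.0052 and NUP62 0.0040. Quantile normalization gave XPO6 -0.0001, leaving out control replicate 2 gave NUP62 0.0039 (range over the left-out libraries -0.099 to 0.0039), and leaving out siAARS1 replicate 1 gave XPO6 -0.018 (range -0.018 to 0.037). Of the 51 members, 15 changed sign with the transcript correction, 19 with the coding/UTR correction and 7 under median scaling. Under every setting 20 stayed above 0 and 1, KPNA6, stayed below. The 20 include KPNA5, which entered the test only through the siAARS1 group and supports nothing.

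Shares of the importin alpha total depended on the length used. With the coding length they were 65.9% for KPNA2, 13.8% for KPNA6, 7.30% for KPNA3, 7.28% for KPNA1, 5.53% for KPNA4 and 0.170% for KPNA5 in control, and 59.4% for KPNA2, 9.57% for KPNA6, 13.8% for KPNA3, 8.11% for KPNA1, 8.44% for KPNA4 and 0.709% for KPNA5 after siAARS1. With no length they were 65.8% for KPNA2, 13.9% for KPNA6, 7.18% for KPNA3, 7.40% for KPNA1, 5.44% for KPNA4 and 0.173% for KPNA5 in control, and 59.4% for KPNA2, 9.70% for KPNA6, 13.6% for KPNA3, 8.25% for KPNA1, 8.31% for KPNA4 and 0.722% for KPNA5 after siAARS1.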
